A study of Mus musculus with 20 samples.

Results

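The suprabasal keratin genes Krt1, Krt10, Krt2, Krt77, Krt78 and Krt80 were followed by symbol through a table of raw read counts for 25719 mouse genes. All 6 genes were found, and all 6 passed the filter on low counts that left 12424 genes for testing. The libraries came from keratinocytes of ear and dorsal skin that had been sorted by flow cytometry from 20 mice, with 5 mice in each of 4 groups. The cKO mice had floxed Cyp11b1 alleles (Cyp11b1 L2/L2) together with the K14-CreERTam transgene, a tamoxifen-activated Cre recombinase under the Krt14 promoter, which is active in basal keratinocytes. Control mice were littermates with the same floxed alleles and no Cre. Cyp11b1 encodes the enzyme of the last step of corticosterone synthesis, and the study asked how its loss in keratinocytes acts when induced locally or systemically. All 20 mice, controls included, received tamoxifen on 5 days and were sampled on day 6. Topical mice had tamoxifen in ethanol on the ear (20 µl) and on the dry-shaved back (100 µl), and systemic mice had 100 µl of 10 mg/ml in oil and ethanol injected into the peritoneum. Shaving, solvent and route therefore cannot be told apart, and neither can Cre activity and loss of the gene, because the controls lack Cre. The ages of the mice were not given in the sources used here.

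Keratins are the intermediate filament proteins of epithelia, and each filament is built from pairs of one type I and one type II keratin. Basal cells of the epidermis make the pair of Krt14 (type I) and Krt5 (type II). When a cell leaves the basal layer it starts to make Krt10 (type I) and Krt1 (type II), and the other type II members join in the suprabasal layers. Krt2 belongs to the upper spinous and granular layers and, in the mouse, to sites such as ear, tail and sole. Krt77 and Krt78 are less abundant type II keratins of suprabasal cells, and Krt80 is a type II keratin found near desmosomes in differentiating epithelial cells.

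On GRCm38, Krt10 (ENSMUSG00000019761) lies on the minus strand of chromosome 11 at 99385254 to 99389364, among the type I keratin genes. The type II members lie on the minus strand of chromosome 15, where Krt80 (ENSMUSG00000037185) spans 101347444 to 101370162 and Krt2 (ENSMUSG00000064201) spans 101810689 to 101818169. Further along the same cluster, Krt1 (ENSMUSG00000046834) spans 101845426 to 101850794, Krt77 (ENSMUSG00000067594) spans 101858731 to 101869705 and Krt78 (ENSMUSG00000050463) spans 101946001 to 101954287. All 6 are protein-coding, and the table gives 1 count per gene and library. Exons of the antisense gene Gm11940 overlap those of Krt10 by 146 bases, and exons of Gm35853 overlap those of Krt80 by 263 bases. Of the 50-base words in their transcripts, 2.37% for Krt10 and 2.74% for Krt80 also occur in another gene, and none does for the other 4 members. Reads of Krt10 and Krt80 from those stretches cannot be assigned with certainty.

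Promoter sequences are shown because Krt10, Krt77 and Krt78 varied together from mouse to mouse. No correlation of Krt2 with them passed the test, as described further on. The RefSeq promoter table for GRCm38.p6 matched 4 of the 6 members, and the 250 bases before each start are printed 5′ to 3′ with the matches to the searched motifs in capitals.
Krt10 promoter, chr11:99389365-99389614, minus strand: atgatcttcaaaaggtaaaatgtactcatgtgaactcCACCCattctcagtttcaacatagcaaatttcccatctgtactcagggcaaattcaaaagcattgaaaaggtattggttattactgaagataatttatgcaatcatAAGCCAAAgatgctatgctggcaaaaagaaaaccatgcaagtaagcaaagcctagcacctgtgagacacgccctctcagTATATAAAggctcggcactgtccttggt
Krt77 promoter, chr15:101869706-101869955, minus strand: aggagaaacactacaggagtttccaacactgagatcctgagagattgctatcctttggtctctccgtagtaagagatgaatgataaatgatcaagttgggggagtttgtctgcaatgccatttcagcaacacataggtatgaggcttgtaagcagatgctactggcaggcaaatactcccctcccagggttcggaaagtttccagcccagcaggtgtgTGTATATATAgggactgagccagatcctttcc
Krt78 promoter, chr15:101954288-101954537, minus strand: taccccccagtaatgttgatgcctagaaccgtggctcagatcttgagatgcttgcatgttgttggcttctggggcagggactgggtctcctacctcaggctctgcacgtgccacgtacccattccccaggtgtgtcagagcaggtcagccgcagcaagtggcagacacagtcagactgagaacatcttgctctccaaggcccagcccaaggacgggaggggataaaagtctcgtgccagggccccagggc
Krt2 promoter, chr15:101818170-101818419, minus strand: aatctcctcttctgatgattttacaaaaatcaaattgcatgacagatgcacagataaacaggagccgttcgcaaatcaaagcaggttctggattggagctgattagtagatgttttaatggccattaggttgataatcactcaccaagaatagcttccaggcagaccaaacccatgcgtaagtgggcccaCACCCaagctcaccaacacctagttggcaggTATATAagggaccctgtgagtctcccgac
The 6 motifs were searched on both strands, and overlapping matches were kept. A TATA box (TATANA) stood 26 and 28 bases before the start of Krt10, 29 bases before that of Krt2, and 28, 30 and 32 bases before that of Krt77, the last on the opposite strand. This motif occurred in 22.3% of 32526 promoters of the same length. Krt10 alone among the 4 had the CK 8-mer (AANCCAAA), a motif named for keratin promoters, 107 bases before its start, and 5.01% of promoters held it. CACCC, a short motif of Krüppel-like factors found in 52.1% of promoters, stood 213 bases before the start of Krt10 and 60 bases before that of Krt2. No match to the AP-1 motif TGANTCA (6.73% of promoters), the AP-2 motif GCCNNNGGC (13.8%) or the glucocorticoid response element (AGAACA and TGTTCT with 3 bases between, 0.00922%) was present in these 4 windows, and Krt78 had no match to any motif searched. Matches are a description of these letters and not of binding.

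Library totals ranged from 11.6 to 50.1 M counts. Cyp11b1 itself had at most 6 reads in any library and a read in 9 of 20 libraries, with 9 reads in topical controls, 7 in topical cKO, 2 in systemic controls and 4 in systemic cKO, so its loss was not detectable at this depth. The markers were those of keratinocytes: the 6 keratinocyte markers summed to between 70833 and 104858 CPM (counts scaled to a common library total), whereas fibroblast markers summed to at most 31.97, leukocyte markers to at most 30.6 and melanocyte markers to at most 35.1 CPM. Ptprc, the pan-leukocyte gene, was at 0 in 10 of 20 libraries. Satellite-like transcripts, here the sum of 12 predicted genes, set 6 libraries apart: they came to between 79.4 and 11674 CPM in the 5 systemic controls and to 37287 CPM in systemic cKO mouse 2, against at most 42.5 CPM in the other 14 libraries. Mitochondrial genes took 1.87% to 7.49% of counts.

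The members together supplied 1.93% to 4.95% of all counts, and 13.4% to 38.7% of the counts of all keratin genes. CPM below were scaled with TMM factors, and to compare one gene with another they were divided by transcript length in kilobases. On that per-kilobase scale Krt10 was highest, at 6352 ± 1772 CPM per kb (SD, n = 20 libraries). Krt2 followed at 3496 ± 1640, Krt1 at 2458 ± 1200 and Krt77 at 1597 ± 1001 CPM per kb. Krt1 has 2455 bases in its principal transcript, the length used here, and 4415 in all its exons. Per kilobase of all exons Krt1 averaged 1367 CPM, whereas Krt77 has 2931 bases by either measure. The order of Krt1 and Krt77, and the ratios and type II shares that use Krt1, therefore depend on the length chosen. Krt80 (162 ± 48.8) and Krt78 (67.7 ± 45.1 CPM per kb) were minor members. The basal pair was more abundant, with 26294 ± 9053 CPM per kb for Krt14 and 10082 ± 2340 for Krt5. Krt10 exceeded Krt1 in each of the 20 libraries, by a ratio of 1.77 to 4.94, whereas the ratio of Krt2 to Krt1 lay between 0.511 and 5.56, so the order of these neighbours was not fixed. Krt77 and Krt1 also changed places, at ratios of 0.276 to 1.68, and the ranges of Krt80 and Krt78 overlapped. The type II members summed to 0.795 to 1.67 times the level of their type I partner Krt10, while the ratio of Krt2 to Krt10 ran from 0.216 to 1.27 and that of Krt77 to Krt10 from 0.0592 to 0.478.

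**Figure D1:**
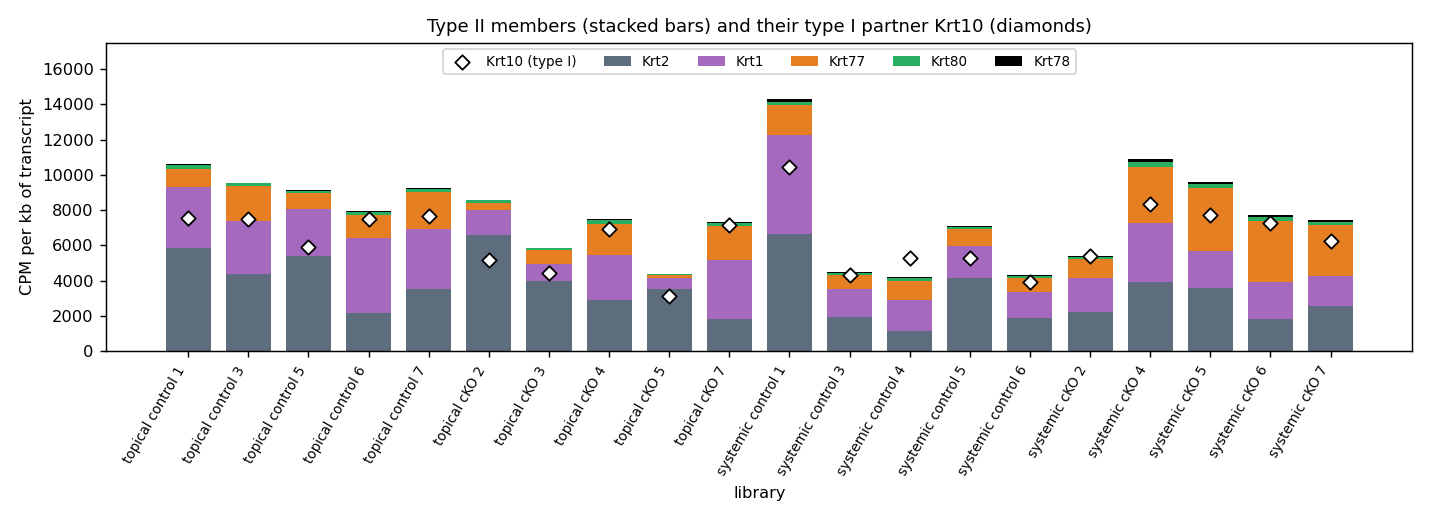
Levels in CPM per kb of transcript (y axis) of the 5 type II members, stacked as bars, and of the type I partner Krt10, as diamonds, in each of the 20 libraries (x axis). The diamonds follow the height of the bars, with a ratio of summed type II members to Krt10 of 0.795 to 1.67, while the make-up of the bars differs: Krt2 makes up 67.3% to 79.5% in topical cKO mice 2, 3 and 5, and Krt77 makes up 29.3% to 44.8% in systemic cKO mice 4 to 7.

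Krt77 gave the clearest departure of one group. In systemic cKO mice it measured 3133, 9356, 10362, 10155 and 8467 CPM (mice 2, 4, 5, 6 and 7), and in systemic controls 4962, 2444, 3222, 2792 and 2413 CPM. Topical controls had 3032, 5745, 2763, 3847 and 6227 CPM, and topical cKO mice 1159, 2333, 5077, 539 and 5612 CPM. In other words, 4 of the 5 systemic cKO libraries stood above all 16 remaining libraries, and the fifth, mouse 2, fell among the controls. The group means ran from 8295 ± 2981 in systemic cKO to 4323 ± 1579 in topical controls, 3166 ± 1056 in systemic controls and 2944 ± 2292 CPM in topical cKO (SD, n = 5 each), and the last 3 groups overlapped each other.

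**Figure D2:**
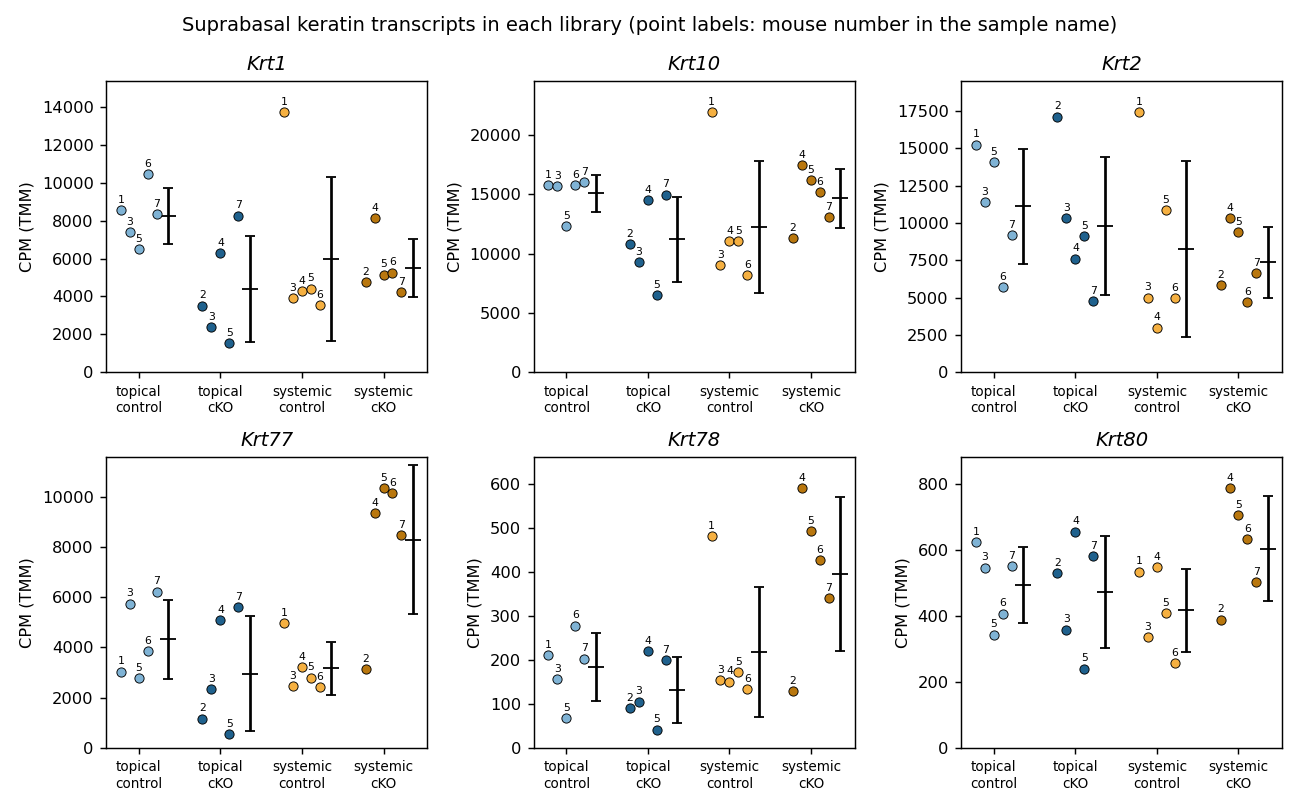
TMM-scaled CPM (y axis, from 0, a separate scale per gene) of the 6 keratins in each library by group (x axis), with the mouse number beside each point and a bar for mean ± SD of 5 mice. Krt77 in systemic cKO mice 4 to 7 lies between 8467 and 10362 CPM, above every other library, and systemic control mouse 1 is the highest library for Krt1, Krt10 and Krt2.

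Krt78, a minor type II member, had a similar profile. Its levels in systemic cKO mice were 129, 592, 493, 428 and 341 CPM, and in topical cKO mice 90.9, 105, 221, 41.3 and 199 CPM. Systemic controls had 483, 155, 151, 172 and 134 CPM, and topical controls 211, 157, 67.7, 278 and 203 CPM. Mouse 2 was again the low systemic cKO library, and the highest library outside this group was systemic control mouse 1. Group means were 396 ± 176 in systemic cKO, 219 ± 148 in systemic controls, 183 ± 77.8 in topical controls and 131 ± 75.9 CPM in topical cKO (SD, n = 5 each), with overlap between all neighbouring groups.

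Krt1 was lowest in topical cKO mice, at 3517, 2391, 6302, 1543 and 8269 CPM (mice 2, 3, 4, 5 and 7), against 8549, 7395, 6515, 10449 and 8367 CPM in topical controls. In 4 of the 5 topical cKO libraries Krt1 was below every topical control, and mouse 7 lay among the controls. Systemic controls had 13744, 3901, 4272, 4416 and 3556 CPM and systemic cKO mice 4737, 8147, 5159, 5260 and 4218 CPM. Systemic control mouse 1 held the highest value of all, and without it the systemic controls ran from 3556 to 4416 CPM and overlapped the lower end of the systemic cKO mice. Group means were 8255 ± 1473 in topical controls, 5978 ± 4354 in systemic controls, 5504 ± 1534 in systemic cKO and 4404 ± 2809 CPM in topical cKO (SD, n = 5 each).

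Krt10, the type I partner, varied least among the abundant members. It measured 15761, 15660, 12312, 15740 and 16014 CPM in topical controls and 10778, 9264, 14536, 6499 and 14964 CPM in topical cKO mice. Here 3 of the 5 topical cKO libraries were below every control. Systemic controls had 21920, 9028, 11062, 11061 and 8161 CPM, and systemic cKO mice 11311, 17478, 16215, 15175 and 13064 CPM, where control mouse 1 was above all cKO mice and the other 4 controls were below all of them. The coefficient of variation over the 20 libraries was 27.9% for Krt10. For the other abundant members it was 46.9% (Krt2), 48.8% (Krt1) and 62.6% (Krt77).

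Krt2 did not separate the groups. It measured 15262, 11415, 14106, 5679 and 9172 CPM in topical controls and 17143, 10322, 7612, 9136 and 4737 CPM in topical cKO mice. Systemic controls had 17433, 4997, 2979, 10882 and 4976 CPM and systemic cKO mice 5848, 10306, 9385, 4687 and 6642 CPM. Every group spanned more than a 2-fold range, and all 4 ranges overlapped. Krt80, at 240 to 789 CPM, had its highest mean in systemic cKO (604 ± 160) and means of 495 ± 115 in topical controls, 473 ± 170 in topical cKO and 417 ± 125 CPM in systemic controls (SD, n = 5 each), also with overlap of all 4 groups.

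The first test asked how topical induction of the knockout changed these transcripts. With edgeR's quasi-likelihood test and Benjamini-Hochberg adjustment over 12424 genes, 0.129% of all genes were called at an adjusted p under 0.05, and none of the 6 members was. The estimate for Krt1 was -0.91 (log2, SE 0.41, unadjusted p = 0.0399, adjusted p = 0.842) and that for Krt10 was -0.43 (SE 0.28, adjusted p = 0.976). The other log2 fold changes were -0.55 for Krt77, -0.48 for Krt78, -0.18 for Krt2 and -0.064 for Krt80. All 6 estimates were below 0, with a median of -0.46 against 0.020 over all genes, and 1 of 6 members had an unadjusted p under 0.05, against 5.66% of all genes. No alternative ended with a call: for Krt1 the adjusted p ranged from 0.412, with the mitochondrial percentage as a covariate, to 1.

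Relative to the basal keratins the topical groups did separate, which is given as a description because the ratios were chosen after the levels had been seen. The per-kilobase ratio of Krt10 to Krt14 was 0.146 to 0.191 in topical cKO and 0.193 to 0.384 in topical controls. That of Krt1 to Krt5 was 0.0668 to 0.229 in topical cKO and 0.231 to 0.506 in topical controls, so neither ratio overlapped, by a narrow margin in both. The members' share of all counts was 2.36% to 3.28% in topical cKO and 3.52% to 4.57% in topical controls. The log2 fold changes of Krt14 and Krt5 themselves were 0.30 and 0.22 (SE 0.32 and 0.25, adjusted p = 0.997 for each). A bulk library cannot tell fewer suprabasal cells in the sort from less keratin RNA per suprabasal cell. Fibroblast markers had estimates of the opposite sign: their sum was 3.17 to 31.97 CPM in topical cKO and 1.45 to 9.88 CPM in topical controls, with 4 of 6 markers past the filter, all 4 estimates above 0 and Pdgfra at 0 in 11 of 20 libraries. Their part in the result was not tested.

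**Figure D3:**
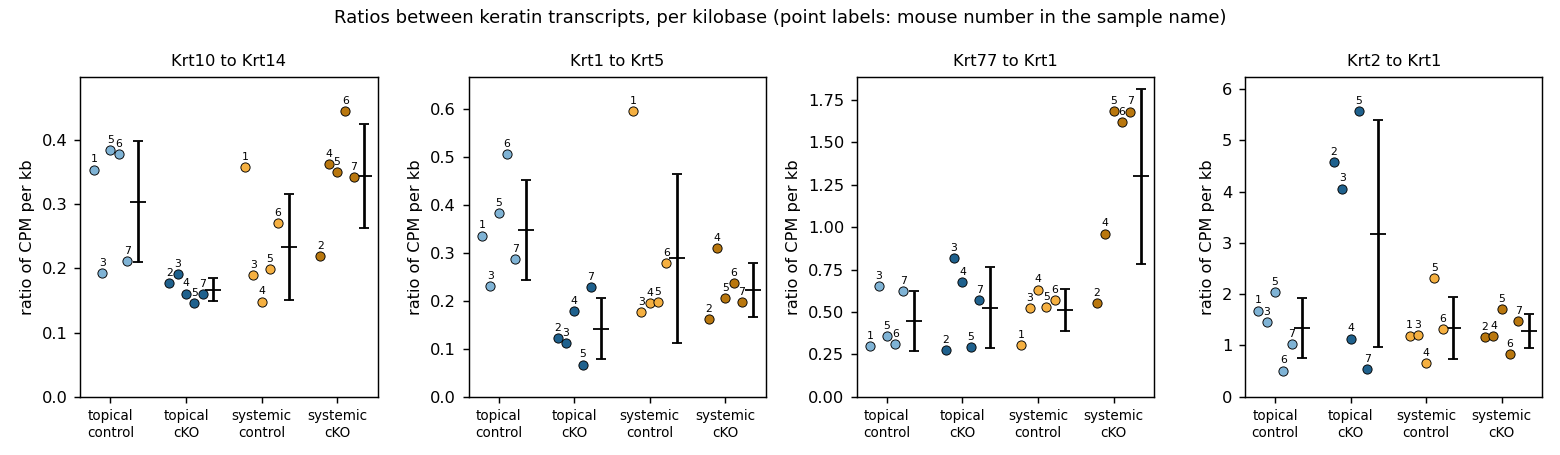
Ratios between keratin transcripts in CPM per kb (y axes, from 0) in each library by group (x axes), with mouse numbers beside the points and bars for mean ± SD of 5 mice. Krt10 to Krt14 and Krt1 to Krt5 are lower in topical cKO than in topical controls without overlap, Krt77 to Krt1 reaches 0.962 to 1.68 in systemic cKO mice 4 to 7, and Krt2 to Krt1 exceeds 4 in topical cKO mice 2, 3 and 5.

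Within the topical cKO group the type II members shifted against each other. Mice 2, 3 and 5, the libraries lowest in Krt1, had Krt2 to Krt1 ratios of 4.58, 4.06 and 5.56, and Krt2 made up 76.4%, 67.3% and 79.5% of their type II members. In mice 4 and 7 the ratios were 1.14 and 0.538. The highest such ratio in the 15 libraries of the other groups was 2.32. Mitochondrial genes took 3.56%, 7.25% and 7.49% of counts in mice 2, 3 and 5 and 2.67% and 2.96% in mice 4 and 7. The part of these shares in the ratios was not tested.

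After systemic induction the knockout comparison called 1.89% of all genes and none of the 6 members. Krt77 came closest, at 1.39 on the log2 scale (SE 0.48, unadjusted p = 0.00853, adjusted p = 0.144), a fitted level 2.62-fold that of systemic controls. Krt78 had 0.86 (SE 0.46, adjusted p = 0.392), Krt80 0.53 (SE 0.28, adjusted p = 0.373) and Krt10 0.26 (SE 0.28, adjusted p = 0.733). Krt1 and Krt2 had -0.12 and -0.16. The median of the members was 0.40 against -0.0045 over all genes. Krt77 alone of the 6 members had an unadjusted p under 0.05, against 15.3% of all genes.

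Whether Krt77 was called depended on the model, and its adjusted p moved with single libraries without falling under 0.05. Without systemic cKO mouse 2, the low library that also had the highest satellite-like signal, the log2 fold change was 1.60 (SE 0.48) and the adjusted p was 0.0501, and with each library of the 2 groups dropped in turn the adjusted p ranged from 0.0501 to 0.320. Krt77 was called by DESeq2's Wald test (adjusted p = 0.0458) and with the mitochondrial percentage as a covariate (adjusted p = 0.0155), and Krt80 was called in the latter fit as well (log2 fold change 0.79, adjusted p = 0.00516). With satellite-like transcripts over 50 CPM as a covariate the log2 fold change of Krt77 was -0.015 (SE 0.78) and no gene was called. All 5 systemic controls were above and 4 of 5 systemic cKO mice below that threshold, so in the systemic arm genotype and satellite-like signal differed only through mouse 2 and otherwise cannot be told apart. The level of Krt77 in mouse 2, with high satellite-like signal and the knockout label, was 3133 CPM, within the 2413 to 4962 CPM of the systemic controls.

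In relative terms Krt77 took a larger place among the type II members of systemic cKO mice. Its per-kilobase ratio to Krt1 was 0.962, 1.68, 1.62 and 1.68 in mice 4, 5, 6 and 7, and 0.554 in mouse 2. The other 15 libraries had ratios of 0.276 to 0.817. Krt77 made up 19.8% to 44.8% of type II members in systemic cKO, and 4.18% to 26.2% elsewhere. Relative to Krt10 it stood at 0.198 to 0.478 in systemic cKO and at 0.0592 to 0.278 elsewhere.

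The interaction of genotype and route, which tests whether the knockout effect differed between systemic and topical induction, called 0.25% of all genes and none of the members. Estimates were 1.94 for Krt77 (SE 0.67, adjusted p = 0.180), 1.34 for Krt78 (SE 0.65, adjusted p = 0.362) and 0.79 for Krt1 (SE 0.58, adjusted p = 0.569). Those of Krt10, Krt80 and Krt2 were 0.69, 0.60 and 0.022. All 6 were above 0, with a median of 0.74 against -0.028 over all genes. Krt77 was the member with an unadjusted p under 0.05 in edgeR, against 14% of all genes. Krt77 was called only with the mitochondrial percentage as a covariate (2.21, adjusted p = 0.0431).

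**Figure D4:**
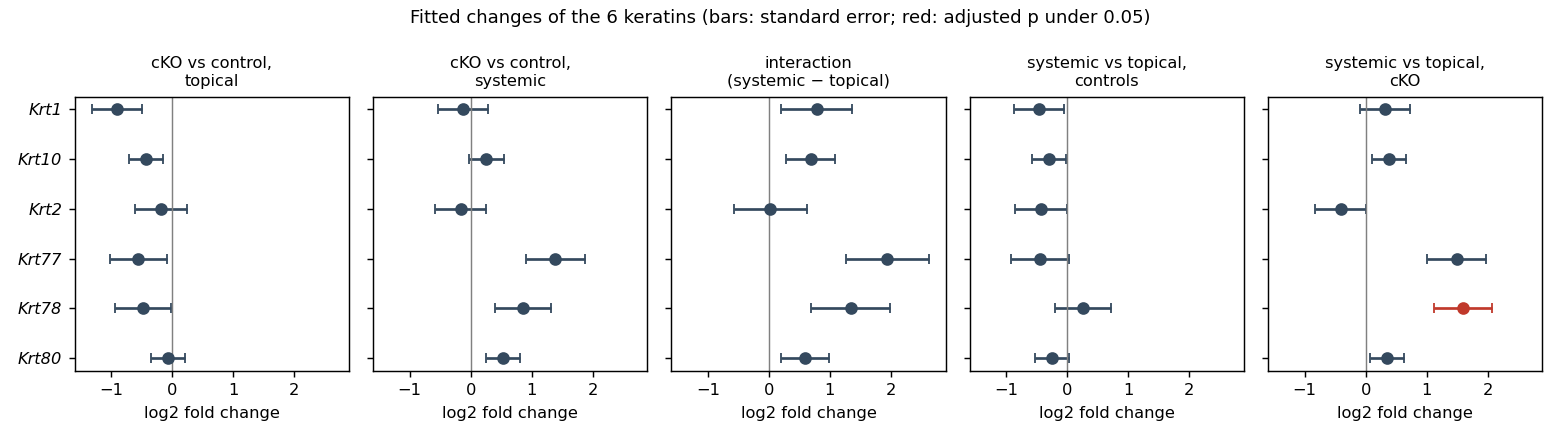
Fitted log2 fold changes (x axes) of the 6 keratins (y axis) in the 5 comparisons, with bars for the standard error and red for an adjusted p under 0.05 by edgeR's quasi-likelihood test. Only Krt78 in the comparison of systemic with topical cKO mice is red, and Krt77 has the largest estimates in the systemic genotype comparison (1.39) and the interaction (1.94).

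Between the routes, controls showed no called member, where 18.3% of all genes were called. Log2 fold changes of systemic against topical controls were -0.47 for Krt1, -0.45 for Krt77, -0.43 for Krt2, -0.30 for Krt10, -0.25 for Krt80 and 0.26 for Krt78, with adjusted p between 0.462 and 0.731 and no unadjusted p under 0.05, against 32.9% of genes. Systemic control mouse 1, the highest library for Krt1 and Krt10, weighed on this comparison. Without it the estimates for Krt1, Krt10 and Krt2 were -1.03 (adjusted p = 0.0537), -0.62 (adjusted p = 0.0968) and -0.90 (adjusted p = 0.118), and that of Krt78 was -0.26. In these controls the satellite-like threshold is the same split as the route.

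In cKO mice the route comparison called 9.22% of all genes, with 5.19% of all genes called upward, and 1 of the 6 members. Krt78 rose 3.02-fold in systemic against topical cKO mice (log2 fold change 1.60, SE 0.47, adjusted p = 0.0350), with 4 of 5 systemic libraries above all 5 topical ones. Krt77 stood at 1.49 on the same scale (SE 0.48, adjusted p = 0.0544), also with 4 of 5 systemic libraries above all topical ones. The remaining estimates were 0.39 for Krt10, 0.35 for Krt80, 0.32 for Krt1 and -0.41 for Krt2, and 2 of 6 members had an unadjusted p under 0.05, against 23.1% of all genes. This comparison shares its libraries with the genotype comparisons and is not a separate observation of Krt77 or Krt78.

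Whether Krt78 and Krt77 were called depended on the libraries included. Without systemic cKO mouse 2, Krt78 (1.82, adjusted p = 0.0143) and Krt77 (1.70, adjusted p = 0.0296) were both called, and Krt77 was also called without topical cKO mouse 4 (adjusted p = 0.0362) or mouse 7 (adjusted p = 0.0248). When single libraries were dropped in turn, Krt78 was still called in 4 of 10 fits, namely those without topical cKO mouse 4 or 7 or systemic cKO mouse 2 or 7, and the adjusted p in the other 6 was at most 0.0904. It lost the call without the filter on low counts (adjusted p = 0.0842) and in a fit of only these 2 groups (adjusted p = 0.0573). Both genes were called with the satellite-like covariate as well, but among cKO mice only systemic mouse 2 exceeded its threshold. For this comparison that fit amounts to leaving mouse 2 out and adds no separate check. Leukocyte markers differed in the same comparison: their sum was 14.5 to 30.6 CPM in systemic cKO and 5.90 to 11.4 CPM in topical cKO, nearly all of it Cd74, the only one of 6 past the filter. Sebocyte markers summed to 315 to 3010 CPM in systemic cKO and 1219 to 3659 CPM in topical cKO. Their part in the result was not tested.

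Other genes of the suprabasal programme were also called in the cKO route comparison. Counts from lists of different size were not tested against each other. Of all genes 9.22% were called in this comparison, with 5.19% called upward. Of 18 spinous-layer genes, 8 rose and none fell, with a median log2 fold change of 0.75 against -0.013 over all genes. Among them were Ppl, a cornified envelope plakin (0.995, adjusted p = 0.000331), and Tgm1, the transglutaminase that cross-links the envelope (1.44, adjusted p = 0.000977). The desmosomal cadherin Dsc1 (1.26), the envelope precursor Ivl (adjusted p = 0.0165) and the metallothionein Mt4 (1.41) were also called. Of 11 granular-layer genes tested, 7 rose and none fell, with a median of 2.13. Those with the smallest adjusted p were the filaggrin relative Flg2 (3.71, SE 0.48, adjusted p = 6.23e-05), Kprp (2.67), Cdsn, a protein of corneodesmosomes (2.22), Cnfn (2.13) and the envelope protein Lor (2.54). Without systemic cKO mouse 2, where 8.39% of all genes were called, the counts were again 8 of 18 and 7 of 11.

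Keratins of other programmes went the other way in the same comparison or were not called. Again, 9.22% of all genes were called there, with 5.19% called upward. Of 4 stress keratins, which keratinocytes make after wounding, 3 fell: the log2 fold changes of Krt6b, Krt6a and Krt16 were -5.34, -3.80 and -2.28, with adjusted p of 0.0192, 0.0195 and 0.0311. Krt16 averaged 3049 ± 1934 CPM in systemic and 14845 ± 12571 CPM in topical cKO mice (SD, n = 5 each). In the same order Krt6a averaged 47.2 ± 21.5 and 657 ± 848 CPM, and Krt6b 4.58 ± 3.81 and 186 ± 296 CPM. The spread between topical mice was therefore large. Topical cKO mouse 7 was the highest, at 2147 CPM for Krt6a and 711 CPM for Krt6b. Of 3 simple-epithelial keratins tested, Krt7 fell (log2 fold change -3.80, adjusted p = 0.00151), and of 6 hair-follicle keratins tested none was called. Basal Krt14 (-0.63, adjusted p = 0.241) and Krt5 (-0.22, adjusted p = 0.652) were not called. The other basal keratin tested, Krt15, had an estimate above 0 (0.93, adjusted p = 0.0686) and was not called either. Of 24 regulators of differentiation, 1 was called, the transcription factor Grhl1, which rose by 0.77 (adjusted p = 0.0114), and 2 were called upward without systemic cKO mouse 2.

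In the other comparisons the calls in these lists are given with the share of all genes called. That share was 1.89% in the systemic genotype comparison. After systemic induction 4 of 11 granular genes rose in cKO mice, namely Cdsn (1.79, adjusted p = 0.00728), Lor (2.62), Kprp (1.59) and Flg2 (1.78), and none was called with the satellite-like covariate, which left no called gene at all. No spinous gene, other keratin or regulator was called there. Without mouse 2, where 6.26% of all genes were called, the counts were 4 granular genes and 1 spinous gene upward, and 1 regulator in each direction. After topical induction, where 0.129% of all genes were called, the only call in these lists was 1 of 24 regulators. It was Notch1, the receptor whose signal drives cells out of the basal layer. Notch1 rose by 1.52 on the log2 scale (SE 0.27, adjusted p = 0.0104), from 114 ± 35.2 to 328 ± 110 CPM (SD, n = 5 each). Between the routes in controls 18.3% of all genes were called. Of 3 basal keratins 1 rose, Krt15 (1.25 on the log2 scale, adjusted p = 0.00922). Of 18 spinous genes only Ppl was called (0.55), and of 11 granular genes only Flg2 (1.85). Among 24 regulators the Notch ligand Jag2 rose by 0.89 and Cebpa fell by 0.80. In the interaction, where 0.25% of all genes were called, no gene of any of these lists was. Without systemic cKO mouse 2, where 3.74% of all genes were called, 2 spinous and 3 granular genes were called upward and 1 regulator downward.

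Mice of one group that were high in one suprabasal keratin tended to be high in the others, except for Krt2. For each gene the log2 CPM of each library was expressed as its deviation from the mean of its group, and the 15 pairs of members were correlated over the 20 libraries. The 10 pairs among Krt1, Krt10, Krt77, Krt78 and Krt80 had Pearson's r of 0.716 to 0.938 and Spearman's rho of 0.620 to 0.931. All 10 passed a two-sided permutation test with 100000 shuffles within groups (adjusted p from 5e-05 to 0.00768 for r and from 7.5e-05 to 0.0222 for rho). The tightest pair was Krt1 with Krt10, the textbook heterodimer (r = 0.938, rho = 0.926), and the smallest p that the shuffles can give is 1e-05. The 5 pairs with Krt2 had r of -0.139 to 0.261 and rho of -0.120 to 0.152, with adjusted permutation p of 0.568 to 0.714 for r. A p of this size does not show that Krt2 varied independently of the others.

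Krt2 also stood apart when libraries were removed. Without the 2 libraries farthest from the median of the first gene, r was 0.536 to 0.900 for the 10 pairs and -0.299 to 0.185 for the pairs with Krt2. Within the 14 libraries with little satellite-like signal the values were 0.701 to 0.952 and -0.475 to 0.0366, and the 6 remaining libraries, 5 of them systemic controls, were too few for their own value. Krt2 with Krt1 and with Krt10 turned from 0.129 and 0.261 to -0.369 and -0.274 in the 14 libraries. As a background, 0.0161% of the 12423 other genes tested had an r with Krt10 at or above that of Krt1. The same share was 0.233% for Krt78, 0.869% for Krt80, 2.66% for Krt77 and 30.5% for Krt2.

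**Figure D5:**
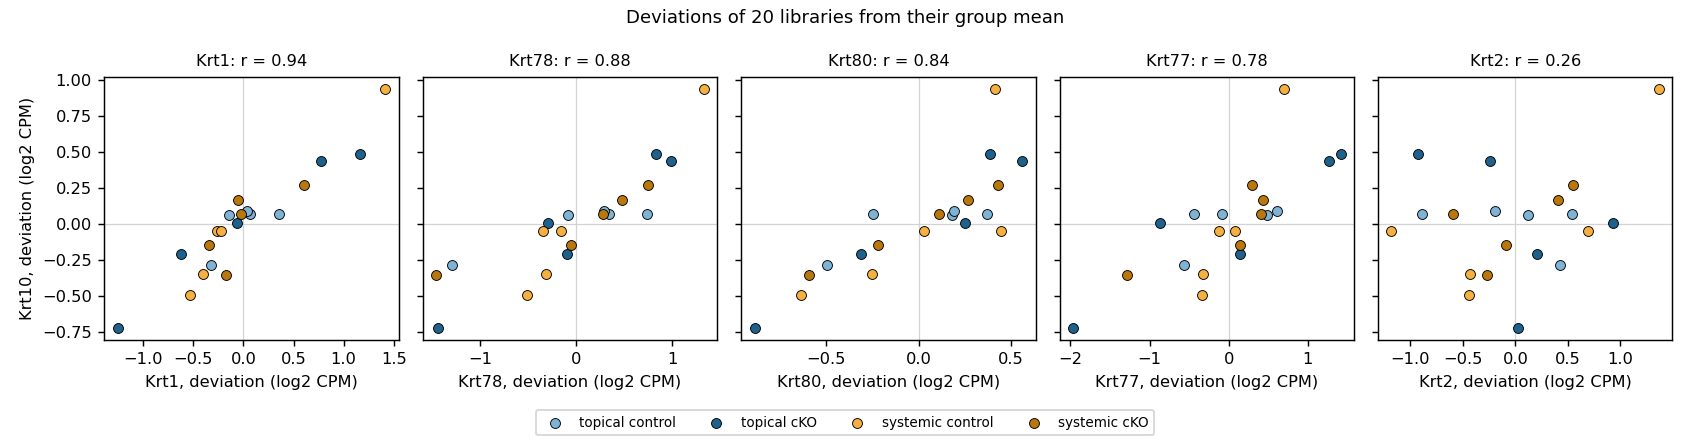
Deviation of Krt10 (y axis) against that of 5 other members (x axes) from the group mean in log2 CPM, 1 point per library and colours for the 4 groups, with Pearson's r over 20 libraries above each panel. The points rise along a line for Krt1 (r = 0.938) and spread without direction for Krt2 (r = 0.261).

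The mitochondrial share of counts varied inversely with 3 of the 6 keratins. Its deviation from the group mean correlated with that of Krt80 at r = -0.879 (rho = -0.910), of Krt10 at r = -0.737 (rho = -0.756) and of Krt1 at r = -0.680 (rho = -0.714), with adjusted permutation p of 0.00036, 0.00834 and 0.0383 over 12 relations. Without the 2 farthest libraries these r were -0.861, -0.681 and -0.569. Krt77 (-0.578, adjusted p = 0.0815), Krt78 (-0.553, adjusted p = 0.0744) and Krt2 (-0.180, adjusted p = 0.768) did not pass by permutation. After the mitochondrial share had been removed from the deviations, r was 0.882 for Krt1 with Krt10 and 0.841 for Krt10 with Krt78, but 0.340 for Krt1 with Krt80. No member passed for the log2 of the library total, with r of -0.0321 to 0.323.

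Genes with the most similar profile over the 20 libraries were ranked by Pearson's r of log2 CPM among 7836 genes averaging 5 CPM or more, a measure that holds group differences as well as differences between mice. For Krt10 they included Tmprss4 (r = 0.943), Rab25 (0.941), Pkp1 (0.904) and Dmkn (0.901), where Pkp1 is a desmosomal plaque protein and Dmkn a secreted product of differentiating keratinocytes. For Krt1 they were Tmprss4 (0.867), Skint1 (0.861), Rab25 (0.849), Oas1e (0.846) and Sh3bp5 (0.845). In rankings added after the data had been seen, Pla2g2f, a phospholipase of the suprabasal epidermis, came first for Krt77 (0.938) and Cited4 for Krt78 (0.958), and Nectin4 was among the first 5 for both. Krt2 had a different set, led by Kazald1 (0.881) and the keratin Krt24 (0.797), and Krt80 was led by Os9 (0.875) and Efna3 (0.870).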

How the data were processed

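The authors deposited 1 table of raw counts, whole-number reads per gene for 20 libraries. Per the labels' protocols, RNA of 2 M sorted keratinocytes per mouse went into SmartSeq II libraries. STAR, featureCounts and the build GRCm38 (mm10) are named, without versions, per the submitters' processing notes; strand handling is not given in the sources used here. No molecular identifiers are described, so reads are not independent molecules. Of the identifiers, 25614 of 25719 were in GENCODE M21, which supplied positions and the principal transcript lengths.

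One edgeR model (version 4.0.16, R 4.3.3) covered all 20 libraries, with TMM, filterByExpr (minimum count 10, total 15), quasi-likelihood with robust dispersion, 1 coefficient per group and two-sided tests. Genes were called at a Benjamini-Hochberg adjusted p under 0.05 over 12424 genes. Correlations used log2 CPM with a prior count of 2, in SciPy 1.17.1. Alternatives were DESeq2 1.42.0 size factors and Wald test, no filter, the compared groups alone, the mouse number as a block, leaving out each library, and covariates for satellite-like signal (over 50 CPM) and mitochondrial percentage. A sex covariate (3 or 2 male mice per group, from Y-linked genes over 5 CPM) and list counts without systemic cKO mouse 2 were added after seeing the data. The pipeline was tested on simulated data. Libraries of a group differed by far more than counting noise in each of 40 pairs. Because reads are not independent molecules, this cannot show that the libraries come from different mice. Each was kept as 1 mouse by its label.

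The members, gene lists, comparisons and alternatives were chosen with earlier results of these data known. All 6 members were named in every comparison. From the other lists at most 5 called genes per comparison were named by smallest adjusted p, with Krt5 and Krt14 always. Krt15, not called, was added in the cKO route comparison. The text also names the 5 nearest profiles of Krt1 and Krt10. One gene among the latter is not reported here. The lists were basal, stress, simple-epithelial and hair-follicle keratins, spinous-layer genes, granular-layer genes and differentiation regulators.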

Additional observations from a re-analysis of the deposited data

Results flagged for a closer look

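Among 44 groups of 5 values checked (the members and their ratios in each experimental group), 7 had a highest or lowest library whose gap to its neighbour exceeded 0.71 of the range of the group. Chance alone flags about 1 group in 20. Systemic control mouse 1 accounted for 4 of them: Krt1 at 13744 CPM against 4416 in the next library (gap 0.916 of the range), Krt78 at 483 against 172 CPM (0.891), Krt10 at 21920 against 11062 CPM (0.789) and the Krt1 to Krt5 ratio at 0.596 against 0.279 (0.755). This mouse had the lowest satellite-like signal of the systemic controls, at 79.4 CPM. Topical control mouse 5 was low in Krt10, at 12312 against 15660 CPM (0.905). Systemic cKO mouse 4 was high in Krt1, at 8147 against 5260 CPM (0.735). Systemic cKO mouse 2 was low in Krt77, at 3133 against 8467 CPM (0.738), and had the highest satellite-like signal of all libraries, at 37287 CPM.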

How the results depend on the processing

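The direction and the call of each member were the same with DESeq2 size factors in all 5 comparisons. Counts of called genes moved more. In topical cKO against control they were 16 in the model of the report, 42 by DESeq2's Wald test and 9 with the mouse number as a block, in systemic cKO against control 235, 559 by DESeq2, 1320 with the mitochondrial covariate, 35 with these groups alone and 0 with the satellite-like covariate. For the interaction they were 31, 321 by DESeq2, 364 with the mitochondrial covariate, 49 with sex as a covariate and 0 with the satellite-like covariate or the block. Systemic against topical controls gave 2277, 3496 with the mitochondrial covariate and 1 with the satellite-like covariate. Members called in systemic against topical cKO numbered 1, and 2 by DESeq2 or with the block, satellite-like, mitochondrial or sex term, and 0 without the filter or with these groups alone. In the systemic genotype comparison 1 member was called by DESeq2 and 2 with the mitochondrial covariate, which also gave 1 in the interaction. Within a group the satellite-like covariate differs only through systemic cKO mouse 2. Every shift with it, also the changes of sign below, therefore rests on that library. What set mouse 2 apart and the causes of the other shifts were not tested.

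Estimates that changed sign (log2) were these. With the satellite-like covariate, Krt10, Krt77, Krt78 and Krt80 had -0.11, -0.015, -0.77 and -0.10 in the systemic genotype comparison, Krt2, Krt78 and Krt80 had -0.31, -0.28 and -0.038 in the interaction, and Krt10, Krt77 and Krt80 had 0.15, 1.16 and 0.51 between routes in controls. With the mitochondrial covariate Krt80 had 0.020 after topical and Krt1 0.21 after systemic induction. The replicate block gave 0.12 for Krt1 and 0.27 for Krt2 after systemic induction. Krt2 correlated at -0.369 with Krt1, -0.274 with Krt10 and -0.408 with Krt78 in the 14 libraries with little satellite-like signal.

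With each library left out in turn, called genes ranged from 10 to 19 (topical), 81 to 787 (systemic; 787 without cKO mouse 2), 16 to 470 (interaction; 470 without systemic cKO mouse 2), 1463 to 2524 (route in controls) and 746 to 1218 (route in cKO, with 0 to 2 members). Ranges that crossed 0 were -0.21 to 0.10 for Krt80 after topical induction, -0.30 to 0.45 for Krt1 and -0.38 to 0.31 for Krt2 after systemic induction, -0.19 to 0.49 for Krt2 in the interaction and -0.26 to 0.45 for Krt78 between routes in controls. Correlations of Krt2 ranged from -0.272 to 0.372 with Krt1, -0.136 to 0.435 with Krt10, -0.315 to 0.0296 with Krt77 and -0.186 to 0.215 with Krt78.

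Mouse numbers were not treated as pairs. Of 20 same-number pairs, 9 had a correlation of deviations over 0.1 (median 0.0481, range -0.314 to 0.512). The median of the 130 other pairs was -0.0206, and 4 of 20 libraries correlated best with their own number. These values do not exclude a partial pairing. Depth did not limit the members, whereas Cyp11b1 was too low to test.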
